A study of Homo sapiens with 6 samples.

Results

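The D-type cyclins (*CCND1*, *CCND2* and *CCND3*), the kinases they activate (*CDK4* and *CDK6*), 4 inhibitors of cyclin-dependent kinases (*CDKN2A*, *CDKN2B*, *CDKN2C* and *CDKN1B*) and the retinoblastoma gene *RB1* were compared between parental and *ZKSCAN3*-deficient colon cancer cells. These 10 genes were taken by symbol from a table of 46427 genes, and each symbol matched 1 row. No gene of this set passed a false discovery rate (FDR) of 0.05 between the genotypes. For *CDKN1B* and *CDK6*, 2 of the 9 genes tested, all *ZK3*-KO libraries lay below all *ZK3*-WT libraries, a share near the 26.6% of all tested genes whose groups did not overlap in either direction. Over all 6 libraries, *CDKN2B* and *CDKN2C* differed more within each genotype than between the genotypes. Within *ZK3*-KO cells this rested on replicate 3. Without that library the log2 fold changes were -1.40 and 1.05 (edgeR FDR 0.0620 and 0.0630).

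These genes make up the switch by which a cell leaves G1 phase. D-type cyclins accumulate in response to growth signals and bind CDK4 or CDK6, and the active kinases phosphorylate the retinoblastoma protein, which releases E2F transcription factors and allows S phase genes to be expressed. The INK4 inhibitors, encoded by *CDKN2A*, *CDKN2B* and *CDKN2C*, bind the kinases CDK4 and CDK6 themselves, whereas p27, encoded by *CDKN1B*, binds complexes of cyclin and kinase. In colon epithelium, *CCND1* is known as a target of growth factor and β-catenin signaling.

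All RNA came from HCT116, an established human colorectal carcinoma line, grown in DMEM with fetal bovine serum. The *ZK3*-WT group held 3 libraries of the unedited parental line (labelled wild type *ZKSCAN3*). The *ZK3*-KO group held 3 libraries of cells in which CRISPR/Cas9 targeted the first exon of *ZKSCAN3*. The methods describe the edited line as carrying mutations in both alleles and as selected with puromycin from single cells. How many clones the *ZK3*-KO libraries came from is not stated, and the parental cells are not described as having gone through selection, so effects of selection and of the mutation cannot be told apart. The methods call the triplicates biological, and no label ties them to separate cultures, so the p-values measure the spread between these libraries.

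Each library held 60827060 to 69739215 counted reads. *ZKSCAN3* mRNA was counted at 13.6 to 28.1 CPM (read counts scaled to library size with TMM factors), and the genotypes overlapped (log2 fold change -0.16, 0.086 without *ZK3*-KO replicate 3, edgeR FDR 0.797), so its level does not check the labels. Below, values by library are listed in the order of replicates 1, 2 and 3, log2 fold changes are *ZK3*-KO over *ZK3*-WT, and the edgeR FDR is the quasi-likelihood p-value adjusted over all tested genes. Of 8 markers of colon epithelium, *EPCAM*, *CDH1*, *KRT8*, *KRT18*, *KRT19* and *CDX2* were expressed, whereas *VIL1* and *LGALS4* were at or near 0. Of 8 markers of blood, endothelium and stroma, *PTPRC* and *CD3E* were at 0 in every library, and *COL1A1* held most of their sum of 42.3 to 112 CPM. The summed epithelial markers were highest in *ZK3*-KO replicate 3 (5448 CPM, against 2740 to 3742 CPM elsewhere). *ACTA2*, a gene of smooth muscle and activated fibroblasts and one of the stromal markers, rose by 1.09 on the log2 scale in *ZK3*-KO cells (edgeR FDR 0.0387, values of 4.39 to 5.52 CPM in *ZK3*-WT and 9.61 to 11.8 CPM in *ZK3*-KO libraries), and its FDR was 0.0654 to 0.184 in edgeR without any 1 library other than *ZK3*-KO replicate 3. Tested genes with TPM above 0 in every library were split into 4 classes of transcript length, implied by their reads per unit of TPM. The median of the longest class relative to *ZK3*-WT cells was -0.24 on the log2 scale in *ZK3*-KO replicate 3. In the other libraries it was between -0.05 and 0.06. *ZK3*-KO replicate 3 therefore stands apart, and results that rest on it are given with and without it.

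Levels of different genes were compared on the TPM scale of the authors, which divides by transcript length. In *ZK3*-WT cells, *CCND1* had the highest level (323 ± 63.2 TPM, SD, n = 3), followed by *CDK4* (172 ± 20.0 TPM) and *CDKN2A* (80.7 ± 10.6 TPM). *CDKN1B* followed at 40.1 ± 2.51 TPM, *CCND3* at 27.8 ± 2.42 TPM, *RB1* at 25.9 ± 1.67 TPM and *CDK6* at 21.8 ± 1.69 TPM. *CDKN2B* had 18.5 ± 9.65 TPM and *CDKN2C* had 6.51 ± 3.18 TPM. The ranges of *CCND3* and *RB1*, of *RB1* and *CDKN2B*, of *CDK6* and *CDKN2B*, and of *CDKN2B* and *CDKN2C* overlapped among *ZK3*-WT libraries. The order within these pairs is therefore not beyond their spread. In *ZK3*-KO cells the means of *CCND3* and *RB1* were alike (24.3 ± 9.40 and 24.3 ± 12.7 TPM), and *CDK6* (13.3 ± 6.19 TPM) lay below *CDKN2B* (14.5 ± 13.1 TPM), again with overlapping ranges.

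*CCND1*, the gene of cyclin D1 (NCBI Gene 595, chromosome 11 of GRCh37, 69455924 to 69469242, forward strand), supplied nearly all D-type cyclin mRNA. It was counted at 509, 718 and 712 CPM (*ZK3*-WT) and 533, 608 and 674 CPM (*ZK3*-KO). The *ZK3*-KO libraries all lay inside the range of the *ZK3*-WT libraries. The log2 fold change was -0.10 (standard error 0.19, edgeR FDR 0.832), and its 95% interval from -0.55 to 0.36 spans a *ZK3*-KO level of 0.684 to 1.28 times the *ZK3*-WT level. In bulk RNA, fewer cells with a transcript and less transcript per cell cannot be told apart, here and in every result that follows.

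*CCND3*, which encodes cyclin D3 (NCBI Gene 896, chromosome 6, 41902672 to 42018095, reverse strand), was the second D-type cyclin. Its libraries stood at 24.3, 27.3 and 28.3 CPM (*ZK3*-WT) and 21.0, 33.2 and 19.4 CPM (*ZK3*-KO). The *ZK3*-KO libraries lay on either side of all *ZK3*-WT libraries. Over all libraries the log2 fold change was -0.12 (standard error 0.23, edgeR FDR 0.820) and was 0.030 without *ZK3*-KO replicate 3.

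*CCND2*, the gene of cyclin D2 (NCBI Gene 894, chromosome 12, 4378937 to 4414519, forward strand), was close to undetected. It had 4 reads in *ZK3*-WT replicate 1, *ZK3*-KO replicate 1 and *ZK3*-KO replicate 3, and 0 reads in the other libraries. A count of 0 allows up to 3 reads, or 0.0428 to 0.0433 CPM in those libraries, and such limits cover counting error only. *CCND2* did not pass the expression filter, and no fold change is given for it. By TPM, *CCND1* made up 92.0 ± 0.913% of summed D-type cyclin mRNA in *ZK3*-WT cells and 92.0 ± 2.32% in *ZK3*-KO cells (SD, n = 3 each), and *CCND3* the remainder. The summed level was 351 ± 65.6 TPM in *ZK3*-WT cells and 299.9 ± 28.9 TPM in *ZK3*-KO cells, with overlapping libraries.

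**Figure D1:**
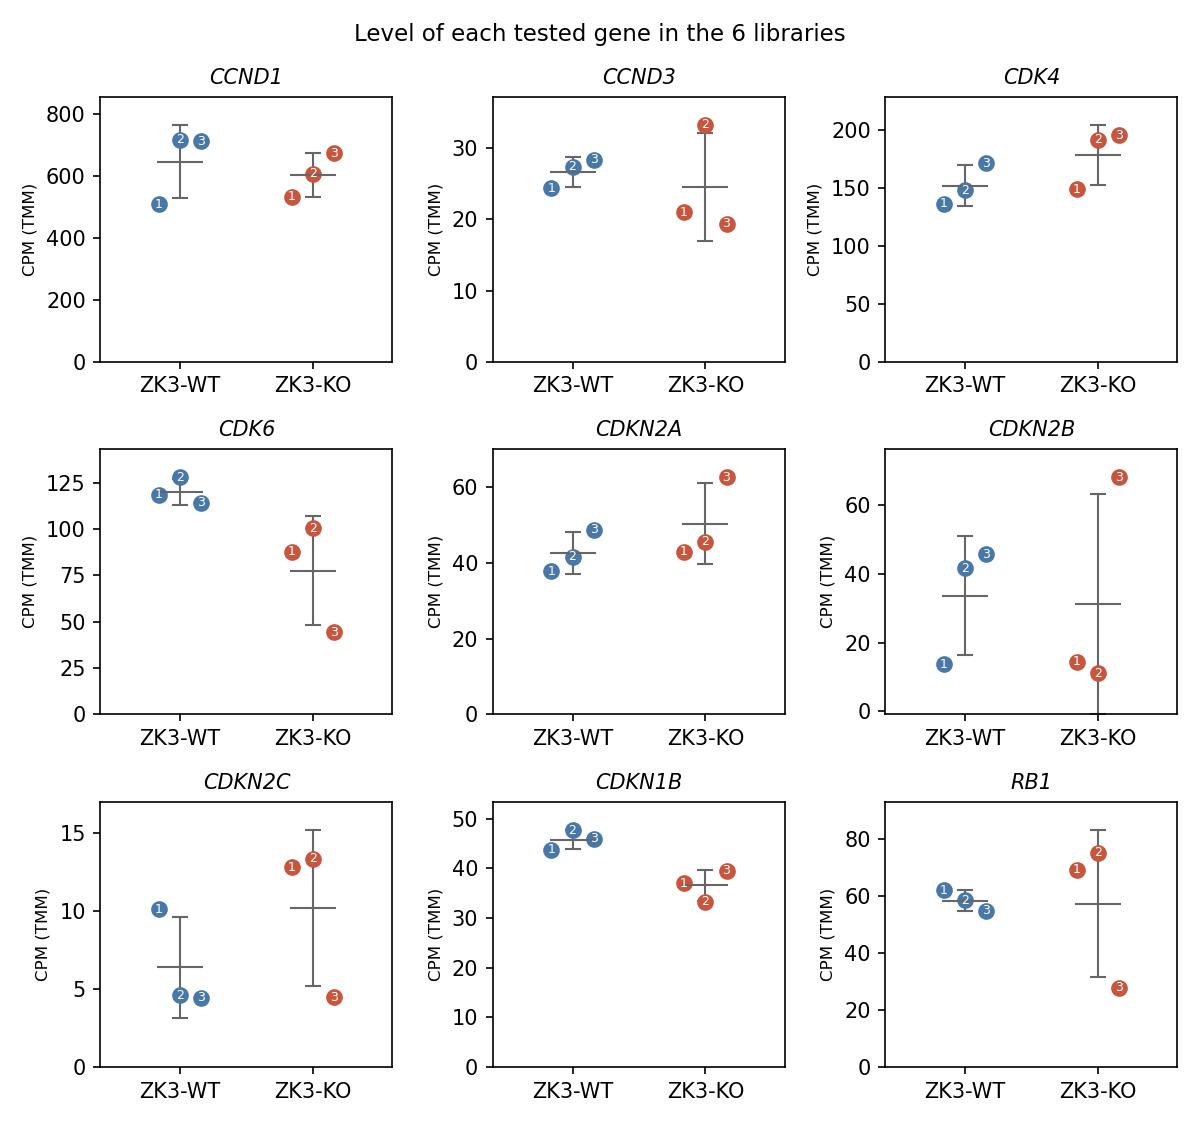
CPM of the 9 genes that passed the expression filter (vertical axes, TMM-normalized, 1 scale per gene) in *ZK3*-WT (blue) and *ZK3*-KO (red) libraries. Numbers in the points are replicate numbers, and bars are mean and SD over 3 libraries. Of these 9 genes only *CDK6* and *CDKN1B* have groups that do not overlap (26.6% of all tested genes do not), and the *CDKN2B* and *CDKN2C* points spread widely within each genotype.

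*CDK4*, the kinase gene with the higher level (NCBI Gene 1019, chromosome 12, 58141510 to 58149796, reverse strand), was counted at 136, 148 and 171 CPM (*ZK3*-WT) and 149, 191 and 195 CPM (*ZK3*-KO). *ZK3*-KO replicates 2 and 3 lay above all *ZK3*-WT libraries, and replicate 1 lay among them. The log2 fold change was 0.23 (standard error 0.17, 95% interval -0.17 to 0.63, edgeR FDR 0.516). The values of the *ZK3*-KO library minus the *ZK3*-WT library of the same replicate number were 0.13, 0.37 and 0.19 on the log2 scale for numbers 1, 2 and 3.

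The *CDK4* promoter is shown because the gene is a known target of MYC, whose dimers with MAX bind the letters CACGTG (the E-box), and its window was the only one of the set with more than 1 E-box. The 250 bases upstream of its start in RefSeq (GRCh38.p14, chr12:57752311-57752560, reverse strand, read 5′ to 3′ towards the gene) hold 3 of them, in capitals, which begin 216, 196 and 101 bases before the start.
*CDK4*: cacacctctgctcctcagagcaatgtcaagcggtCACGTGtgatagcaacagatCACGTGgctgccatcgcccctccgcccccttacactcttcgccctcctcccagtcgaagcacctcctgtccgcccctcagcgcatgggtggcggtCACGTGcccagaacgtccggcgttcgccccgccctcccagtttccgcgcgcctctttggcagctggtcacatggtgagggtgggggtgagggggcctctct
Of all 35116 such windows, 6.34% held at least 1 E-box, as did 3 of the 14 windows of the set (of *CDK4* and *CDKN2C*). The share of all windows with more than 1 was not counted. *MYC* itself was counted at 206, 412 and 373 CPM (*ZK3*-WT) and 236, 282 and 249.6 CPM (*ZK3*-KO), with overlapping groups and a log2 fold change of -0.37 (edgeR FDR 0.503). *MYC* was named after its values were seen, and a match of letters is not a binding site.

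*CDK6*, the second D-cyclin kinase gene (NCBI Gene 1021, chromosome 7, 92234235 to 92465887, reverse strand), was counted at 118, 128 and 114 CPM (*ZK3*-WT) and 87.8, 100.3 and 44.2 CPM (*ZK3*-KO). All *ZK3*-KO libraries lay below all *ZK3*-WT libraries, with replicate 3 far below the others. The log2 fold change was -0.63 (standard error 0.29, unadjusted p 0.0602, edgeR FDR 0.296), and its 95% interval from -1.30 to 0.04 spans 0.405 to 1.02 times the *ZK3*-WT level. Without *ZK3*-KO replicate 3 it was -0.35 (edgeR FDR 0.107), and within replicate numbers 1, 2 and 3 the log2 difference was -0.43, -0.35 and -1.37. The transcript length of *CDK6*, implied by reads per unit of TPM, was above that of 98.3% of the genes in the length classes. Long transcripts were low in *ZK3*-KO replicate 3, and the part of length in the result was not tested. By TPM, the ratio of *CDK4* to *CDK6* was 7.18, 7.24 and 9.38 (*ZK3*-WT) and 10.6, 11.9 and 28.0 (*ZK3*-KO), without overlap. No background share was computed for ratios, and 26.6% of single tested genes had groups that did not overlap. *CDK4* is in a shorter length class than *CDK6*, and the part of length in the ratio of *ZK3*-KO replicate 3 was not tested.

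*CDKN2A* (NCBI Gene 1029, chromosome 9, 21967751 to 21995300, reverse strand) encodes p16, an inhibitor of CDK4 and CDK6, and in another reading frame the ARF protein, and the table counts both on 1 row. The row stood at 37.8, 41.6 and 48.8 CPM (*ZK3*-WT) and 42.9, 45.6 and 62.6 CPM (*ZK3*-KO). The groups overlapped, with *ZK3*-KO replicate 3 above all other libraries. A log2 fold change of 0.24 was fitted (standard error 0.19, edgeR FDR 0.556), against 0.06 without *ZK3*-KO replicate 3.

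*CDKN2B*, its neighbour (NCBI Gene 1030, chromosome 9, 22002902 to 22009304, reverse strand), encodes p15, an INK4 inhibitor known as a target of TGF-β signaling. Its mRNA stood at 13.8, 41.8 and 45.7 CPM (*ZK3*-WT) and 14.4, 11.2 and 68.3 CPM (*ZK3*-KO). The level was low in *ZK3*-WT replicate 1 and in *ZK3*-KO replicates 1 and 2, and high in the other libraries of each genotype, a ratio of 6.11 between the highest and the lowest library. Between genotypes the log2 fold change was -0.11 (edgeR FDR 0.957) and its standard error 0.73, and the 95% interval spans 0.284 to 3.02 times the *ZK3*-WT level. It was -1.40 without *ZK3*-KO replicate 3 (edgeR FDR 0.0620) and 0.29 without *ZK3*-KO replicate 2 (edgeR FDR 0.872). It was also above 0 without *ZK3*-WT replicate 2 (0.07), *ZK3*-WT replicate 3 (0.17) or *ZK3*-KO replicate 1 (0.23). For this gene the libraries do not set a direction.

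The antisense gene *CDKN2B-AS1* (chromosome 9, 21994138 to 22128102, forward strand) overlaps the 5′ end of *CDKN2A* and spans *CDKN2B*. It had 1.21 to 1.83 CPM in all libraries. The libraries were stranded, but whether the counting used strand is not given in the sources used here. *CDKN2A* and *CDKN2B* also resemble each other in sequence, and how reads that match both were counted is not given in the sources used here, so their separate values are uncertain to that extent. Shared reads were not measured.

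*CDKN2C* (NCBI Gene 1031, chromosome 1, 51426417 to 51440306, forward strand) encodes p18, the third INK4 inhibitor examined. Its libraries had values at 10.1, 4.59 and 4.43 CPM (*ZK3*-WT) and 12.8, 13.3 and 4.45 CPM (*ZK3*-KO). The libraries high in *CDKN2C* were those low in *CDKN2B*, in both genotypes. A log2 fold change of 0.68 was fitted for *CDKN2C* (standard error 0.49, 95% interval -0.45 to 1.81, edgeR FDR 0.505), and it was 1.05 without *ZK3*-KO replicate 3 (edgeR FDR 0.0630), 1.18 without *ZK3*-WT replicate 1 (edgeR FDR 0.337) and at the least 0.44 without *ZK3*-KO replicate 2 (edgeR FDR 0.721). At the lowest, *CDKN2C* had 275 reads in a library. A list of 15 E2F target genes of S phase entry summed to 2176, 1406 and 1583 CPM (*ZK3*-WT) and 3069, 4182 and 1082 CPM (*ZK3*-KO), so the same 3 libraries were high in it. Its part in the level of *CDKN2C* was not tested.

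**Figure D2:**
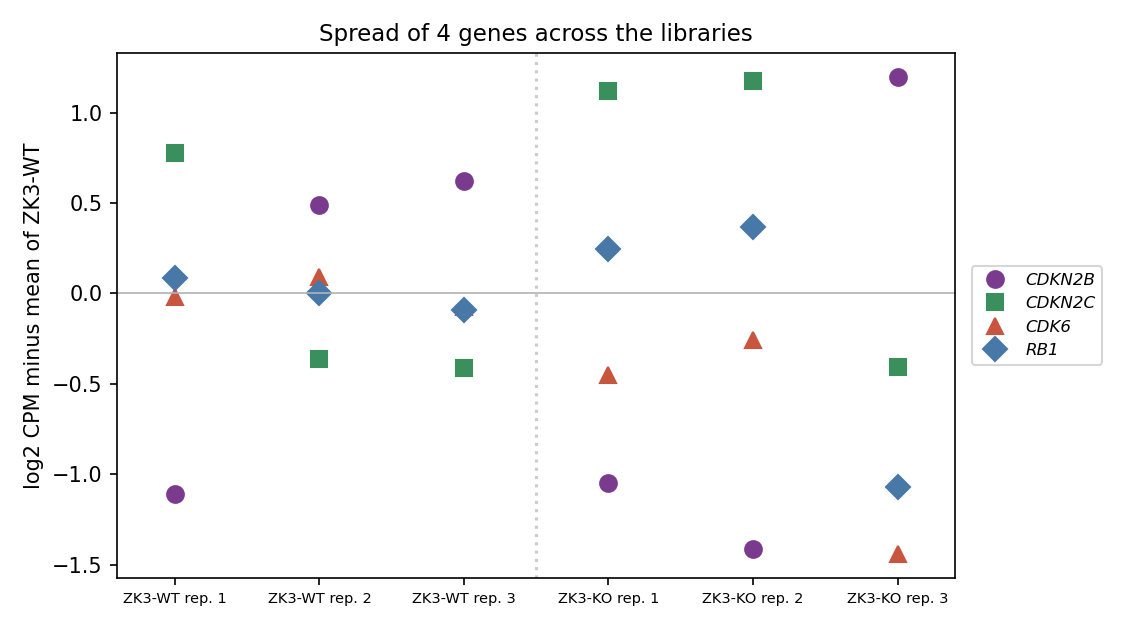
Log2 CPM of *CDKN2B*, *CDKN2C*, *CDK6* and *RB1* in each library (horizontal axis), minus the mean of the 3 *ZK3*-WT libraries. *CDKN2B* and *CDKN2C* lie on opposite sides of 0 in all 6 libraries, and *CDK6* and *RB1* are lowest in *ZK3*-KO replicate 3, at -1.44 and -1.07.

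*CDKN1B*, which encodes p27 (NCBI Gene 1027, chromosome 12, 12838432 to 12875303, forward strand), was counted at 43.7, 47.7 and 46.0 CPM (*ZK3*-WT) and 37.0, 33.3 and 39.6 CPM (*ZK3*-KO). Every *ZK3*-KO library lay below every *ZK3*-WT library. The mean was 45.8 ± 1.97 CPM in *ZK3*-WT cells and 36.6 ± 3.17 CPM in *ZK3*-KO cells (SD, n = 3 each). This is a log2 fold change of -0.32 (standard error 0.14, unadjusted p 0.0479, edgeR FDR 0.268). Its 95% interval spans 0.641 to 0.997 times the *ZK3*-WT level. The log2 difference was -0.24, -0.52 and -0.22 within replicate numbers 1, 2 and 3, and it stayed between -0.44 and -0.26 over 14 alternatives, with FDR values from 0.0950 to 0.638 (edgeR, DESeq2 and limma).

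The promoter of *CDKN1B* is shown because its mRNA had the lowest p-value of the set. The 250 bases upstream of its start in RefSeq (GRCh38.p14, chr12:12717118-12717367, forward strand, 5′ to 3′) are printed with the letters CCAAT, the core of the CCAAT box that NF-Y binds, in capitals.
*CDKN1B*: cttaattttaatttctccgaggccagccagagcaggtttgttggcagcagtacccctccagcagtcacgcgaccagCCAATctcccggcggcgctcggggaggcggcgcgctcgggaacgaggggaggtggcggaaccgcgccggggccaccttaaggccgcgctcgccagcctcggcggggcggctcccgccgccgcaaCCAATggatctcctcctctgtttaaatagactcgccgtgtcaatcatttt
This window held CCAAT at 2 positions, 174 and 50 bases before the start, and 32.0% of the 35116 windows held it or its complement at least once. FOXO factors are known to activate transcription of *CDKN1B*. The letters TGTTTAC, a FOXO motif, were searched on both strands and were not in this window, and 2.98% of all windows held them. Windows were found for 8 of the 10 genes, 14 windows in all. None of them held TGTTTAC or any of TTTCCCGC, TTTCGCGC, TTTGCCGC and TTTGGCGC, which are E2F motifs present on either strand in 2.79% of all windows. These matches describe the letters of the windows and do not bear on whether a factor binds. No window was found for *CCND1* and *CCND2*.

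*RB1*, the gene of the retinoblastoma protein that these kinases phosphorylate (NCBI Gene 5925, chromosome 13, 48877880 to 49173572, forward strand), was counted at 61.9, 58.4 and 54.7 CPM (*ZK3*-WT) and 69.1, 75.1 and 27.7 CPM (*ZK3*-KO). *ZK3*-KO replicates 1 and 2 lay above all *ZK3*-WT libraries and replicate 3 far below them. The fitted log2 fold change of *RB1* was -0.03 (standard error 0.34, edgeR FDR 0.978). Without *ZK3*-KO replicate 3 it was 0.31 (edgeR FDR 0.133), without *ZK3*-WT replicate 1 it was 0.02 (edgeR FDR 0.988), and without *ZK3*-KO replicate 2 it was -0.27 (edgeR FDR 0.746). Transcripts of *RB1* are in the longest of the 4 length classes, and the part of transcript length in its low value in *ZK3*-KO replicate 3 was not tested.

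Of the 10 genes, 9 passed the expression filter and 0 reached an FDR of 0.05 in edgeR, where 2.05% of the 18366 tested genes did (1.23% lower and 0.817% higher in *ZK3*-KO cells). At an unadjusted p under 0.05 there was 1 gene of the set, *CDKN1B*, against 18.4% of all tested genes (9.46% lower in *ZK3*-KO cells). The groups of 2 genes did not overlap, both lower in *ZK3*-KO cells, against 26.6% of all tested genes (13.8% lower, 12.7% higher), a share near that background. The set had 3 log2 fold changes above 0 and 6 below 0, with a median of -0.10, while the median of all tested genes was 0.02. Without *ZK3*-KO replicate 3, 15.1% of all tested genes reached an FDR of 0.05 in edgeR, and again 0 of the 9 genes did, the lowest FDR being 0.0620 for *CDKN2B*. DESeq2 also called 0 of them, with 8.2% of all genes called. The count of 0 also held under the other settings, in which the share of all tested genes called was 2.01% with library totals alone, 1.92% with upper-quartile factors, 0.955% with all genes of at least 1 read, 1.74% with at least 10 reads in every library, 2.08% with limma on log2(TPM + 1), 2.3% with limma on log2(CPM + 1) and 2.51% with the replicate number as a block. With 1 *ZK3*-WT library left out it was 0.357%, 0.261% or 0.303% (replicates 1, 2 and 3), without *ZK3*-KO replicate 1 it was 0.392%, and without *ZK3*-KO replicate 2 it was 0.835%. With 3 libraries in each genotype, the 95% intervals leave room for changes in either direction for every gene but *CDKN1B*.

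**Figure D3:**
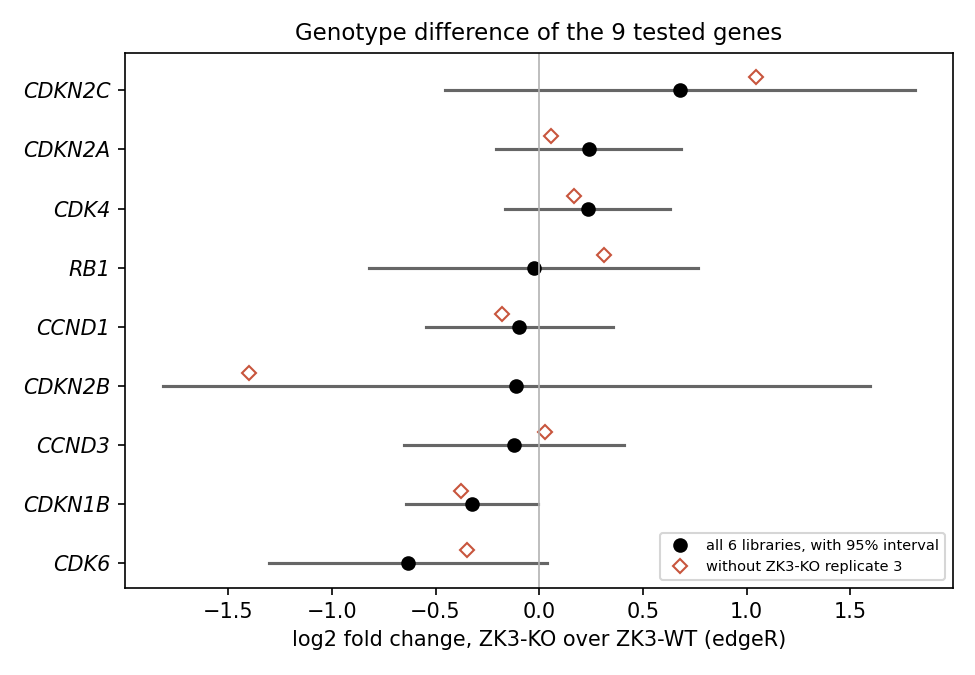
Log2 fold change of *ZK3*-KO over *ZK3*-WT libraries (horizontal axis) for the 9 tested genes in edgeR's quasi-likelihood fit. Black points and lines are the values and 95% intervals over all 6 libraries, and open diamonds are the values without *ZK3*-KO replicate 3. The diamond moves farthest for *CDKN2B*, from -0.11 to -1.40, and of the intervals only that of *CDKN1B* lies below 0.

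Other genes of the G1 pathway were taken from 10 lists (77 genes, 75 tested). Counted with them is 1 list of 3 chromosomal neighbours of *CDKN2A* and *CDKN2B*, all 3 with log2 fold changes above 0. Of the 75 tested genes, 1, *FOXO4*, reached an FDR of 0.05 in edgeR (1.23% of all tested genes did so in the same direction). Their median log2 fold change was 0.33, with 56 values above 0 and 19 below. The 9 tested transcriptional inputs to cyclin D and p27, which include *FOXO4*, had 3 values above 0 and a median of -0.18. *FOXO4*, a FOXO factor of the kind that activates *CDKN1B*, fell by 1.27 on the log2 scale with an edgeR FDR of 0.0454 (standard error 0.23). *FOXO4* stood at 16.8, 16.3 and 15.3 CPM (*ZK3*-WT) and 7.11, 4.67 and 8.30 CPM (*ZK3*-KO), so that its groups lie far apart. Without *ZK3*-KO replicate 3 its FDR in edgeR was 0.00447, and without any other single library it was between 0.0654 and 0.210. *FOXO1* and *FOXO3*, the other FOXO genes listed, had log2 fold changes of 0.44 (edgeR FDR 0.371) and -0.18 (edgeR FDR 0.576), and without *ZK3*-KO replicate 3 they had 0.63 (edgeR FDR 0.0496) and -0.16 (edgeR FDR 0.498). *CTNNB1*, the β-catenin gene, had 0.35 (edgeR FDR 0.437), and 0.55 without that library (edgeR FDR 0.0304). In that fit edgeR called 2 of the 9 inputs higher (*CTNNB1* and *FOXO1*) and 2 lower (*FOXO4* and *EGR1*), where 7.41% and 7.73% of all tested genes were called.

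Downstream of the kinases, the list of cyclin E, cyclin A and CDK2 held 5 tested genes, all with log2 fold changes above 0 (median 0.79) with 0 calls in edgeR, while DESeq2 called *CCNE1*. *CCNE1*, the gene of cyclin E1, had the lowest p of them. It stood at 17.1, 14.98 and 17.4 CPM (*ZK3*-WT) and 23.9, 35.3 and 26.3 CPM (*ZK3*-KO), with no overlap (log2 fold change 0.79, edgeR FDR 0.0903, DESeq2 FDR 0.00775), and without *ZK3*-KO replicate 3 it had 0.85 (edgeR FDR 0.0201). *CDC25A*, the phosphatase that activates CDK2, had 1.11 (edgeR FDR 0.228), with *ZK3*-KO replicate 3 among the *ZK3*-WT libraries, and 1.46 without that library (edgeR FDR 0.00935). *TFDP2*, a partner of E2F factors, was at 96.4, 115 and 89.2 CPM (*ZK3*-WT) and 183, 151 and 163 CPM (*ZK3*-KO), without overlap and with a log2 fold change of 0.72 (edgeR FDR 0.0737, DESeq2 FDR 0.00237). *TFDP2* had 0.74 without *ZK3*-KO replicate 3 (edgeR FDR 0.0168). Of the 10 E2F and DP genes, 8 had values above 0 (median 0.11), and 0 reached the threshold in edgeR, 1 in DESeq2 (*TFDP2*) and 4 in edgeR without *ZK3*-KO replicate 3. All 15 E2F target genes of S phase entry had values above 0 (median 0.66), and 0 passed in edgeR or DESeq2. The *ZK3*-KO libraries were split on this list. Its median gene differed from average *ZK3*-WT levels by 0.85, 1.22 and -0.62 on the log2 scale in replicates 1, 2 and 3. For the cyclin E list these medians were 0.86, 1.22 and -0.32, so *ZK3*-KO replicate 3 ran the opposite way in both lists. *PCNA*, the replication clamp, had 1.26 (edgeR FDR 0.248), and 1.68 without *ZK3*-KO replicate 3 (edgeR FDR 0.00517). Without *ZK3*-KO replicate 3, 13 of these 15 genes and all 5 of the cyclin E list were higher at an edgeR FDR under 0.05, and in all 31 of the 75 pathway genes were higher and 4 lower. In that fit 15.1% of all tested genes were called, 7.41% higher and 7.73% lower in *ZK3*-KO cells. With any other single library left out, 0 pathway genes reached the threshold in edgeR.

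Among the genes that act on the kinases and inhibitors, *MNAT1*, a subunit of the CDK-activating kinase, stood 0.78 higher on the log2 scale in *ZK3*-KO cells (edgeR FDR 0.0859, DESeq2 FDR 0.00699), with no overlap, and 0.63 higher without *ZK3*-KO replicate 3 (edgeR FDR 0.0293). The list of that kinase and of CDK4 chaperones had 4 of 6 values above 0 (median 0.40), with 0 past the threshold in edgeR, 1 in DESeq2 (*MNAT1*) and 2 in edgeR without *ZK3*-KO replicate 3 (*MNAT1* and *HSP90AA1*). *CDC37*, a chaperone partner of CDK4, had 0.45 (edgeR FDR 0.228), and 0.32 without *ZK3*-KO replicate 3 (edgeR FDR 0.130). The ubiquitin ligase adaptor *SKP1*, which takes part in p27 turnover, had 0.52 (edgeR FDR 0.187), and 10 of 13 turnover genes had values above 0 with 0 past the threshold in edgeR or DESeq2. When *ZK3*-KO replicate 3 was left out, edgeR called 2 of them higher, *SKP1* at 0.56 (edgeR FDR 0.0469) and *SKP2*, the receptor of the same ligase that recognizes p27, at 1.14 (edgeR FDR 0.0292). Of 9 regulators of the *CDKN2A* and *CDKN2B* locus, 5 had values above 0 and 0 reached the threshold in edgeR (median 0.04). Of these, the Polycomb gene *CBX7* had -0.82 (edgeR FDR 0.116, DESeq2 FDR 0.0173) and *DMTF1*, an activator of ARF, had -0.38 (edgeR FDR 0.245). DESeq2 called *CBX7* alone, and edgeR without *ZK3*-KO replicate 3 called *CBX7* (-0.99, edgeR FDR 0.0127) and *ID1* (-0.91, edgeR FDR 0.0148) lower and *EED* (0.71, edgeR FDR 0.0274) higher. *MTAP*, the neighbour of *CDKN2A*, stood at 172, 263 and 212 CPM (*ZK3*-WT) and 388, 577 and 261 CPM (*ZK3*-KO), which overlap at *ZK3*-KO replicate 3, and had 0.92 (edgeR FDR 0.179), against 1.17 without that library (edgeR FDR 0.0110). The remaining inhibitors *CDKN1A*, *CDKN1C* and *CDKN2D* had log2 fold changes of 0.53, -0.20 and 0.13 with overlapping groups and FDR values of 0.473 to 0.840 in edgeR. *CDKN1A* was highest in *ZK3*-KO replicate 3 (525 CPM) and had 0.13 without that library (edgeR FDR 0.756). The pocket proteins *RBL1* and *RBL2* had 0.43 (edgeR FDR 0.717) and -0.47 (edgeR FDR 0.312). Without *ZK3*-KO replicate 3, *RBL2* had -0.30 (edgeR FDR 0.277). *RBL1* had 7.83 CPM in *ZK3*-KO replicate 3 against 33.8 and 41.4 CPM in the other *ZK3*-KO libraries, and 0.88 on the log2 scale without that library (edgeR FDR 0.0162).

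**Figure D4:**
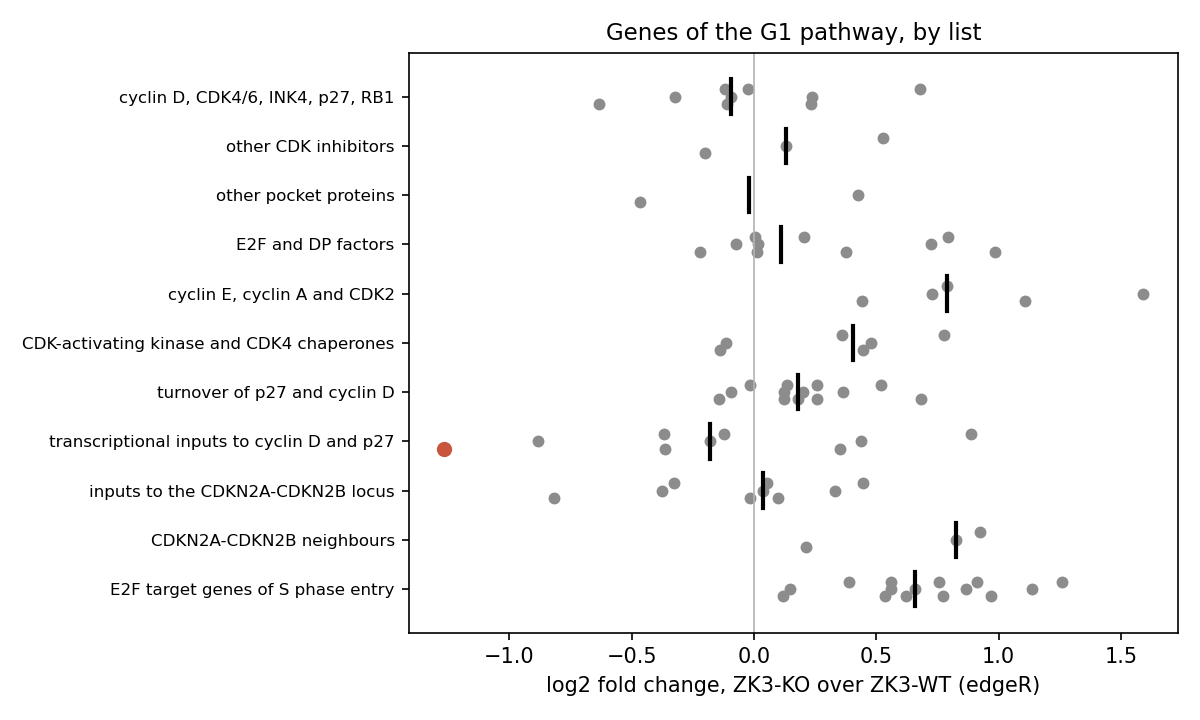
Log2 fold change of *ZK3*-KO over *ZK3*-WT libraries in edgeR's fit for each tested gene (points) of the D-cyclin set (top line) and of 10 further lists. These lists are of the G1 pathway and of chromosomal neighbours of *CDKN2A* and *CDKN2B*. Vertical bars are list medians, and the red point is *FOXO4* at -1.27, the only gene past an FDR of 0.05. The median of the D-cyclin set is -0.10, and that of the cyclin E, cyclin A and CDK2 list is 0.79.

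The genes closest in pattern were sought for *CCND1*, *CCND3* and *CDK6* by the root mean square difference of log2(CPM + 1), centred on each gene's mean, over the 6 libraries, as a description without a test. For *CCND1* they were *METAP1D* (0.0288), *ARL14EP* (0.0347) and *ZNF146* (0.0403), where the median over all tested genes was 0.303. For *CCND3* they were *SIK1B* (0.0625), *PCSK7* (0.0696) and *PYCR3* (0.0755), with a median of 0.342. For *CDK6* they were *GABPA* (0.0744), *GPR63* (0.0780) and *IL17RB* (0.0791), with a median of 0.552. Like *CDK6*, these 3 genes were lowest in *ZK3*-KO replicate 3 (22.1, 5.49 and 1.86 CPM). The differences were not computed without that library. No other gene of the set was among the closest. *RB1* ranked 951 for *CDK6* (0.301), and *CDK4* ranked 2582 for *CCND1* (0.197), no closer than a gene with a constant level would be (0.195). The values of *CDKN2B* were farthest from all 3 genes, at 0.820, 1.08 and 1.27 for *CCND1*, *CCND3* and *CDK6*.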

How the data were processed

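RNA of HCT116 cells was sequenced by the authors from TruSeq stranded mRNA libraries (3 *ZK3*-WT, 3 *ZK3*-KO). Reads were mapped to hg19 in Partek Flow with Bowtie2 (2.2.5 per the submitters' processing notes) and Ensembl transcripts according to the methods, whereas the table lists NCBI Gene and RefSeq identifiers. The authors deposited counts of reads per gene without normalization. The authors also deposited TPM values, scaled by transcript length, and FPKM values, which were not used. Every column matched 1 library.

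The tests used edgeR 4.0.16 under R 4.3.3. filterByExpr left 18366 genes, TMM factors ranged from 0.910 to 1.03, and a quasi-likelihood model with a genotype term and no other was fitted to the 6 libraries. P-values were adjusted by Benjamini-Hochberg over all tested genes, with a threshold of 0.05. Standard errors and 95% intervals derive from the F statistic. TPM was used for levels between genes. Positions are from a GRCh37 annotation, and promoter windows are from RefSeq (GRCh38.p14). The scripts were tested on simulated counts.

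The members and lists were chosen with earlier results of these data known. The text names every gene of the set, *ZKSCAN3*, the 3 genes closest to each of *CCND1*, *CCND3* and *CDK6* (the rule also held *CCND2*, which was not tested), and of each list the genes past the threshold or, without any, the 2 with the largest change at an unadjusted p under 0.05. *FOXO1*, *FOXO3*, *CTNNB1*, *FOSL1*, *MYC*, the remaining inhibitors, the pocket proteins, *SKP2*, *HSP90AA1*, *ID1* and *EED* were added after their values were seen. Alternatives were library totals alone, upper-quartile factors, DESeq2 1.42.0, 2 other filters, limma 3.58.1 on log2(TPM + 1) and log2(CPM + 1), a block for replicate number, unadjusted p-values and each library left out. For same-numbered libraries, deviations from the genotype means correlated across genes at 0.473 (number 1), 0.124 (number 2) and 0.616 (number 3), while *ZK3*-WT replicate 1 and *ZK3*-KO replicate 2 had 0.289. The pairing rests on these values only, because no source says what the numbers mark.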

Additional observations from a re-analysis of the deposited data

How the results depend on the processing

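None of the 9 tested genes of the set passed an FDR of 0.05 in any of 14 alternatives, the block included. At an unadjusted p under 0.05, 1 (*CDKN1B*) passed in the main fit. With the block, *CDK6* passed (edgeR p 0.0190) and *CDKN1B* did not (edgeR p 0.0658). Without *ZK3*-KO replicate 3, *CDK6*, *CDKN2B*, *CDKN2C*, *CDKN1B* and *RB1* passed (edgeR p 0.0109 to 0.0397). In that fit 15.1% of all tested genes reached an FDR of 0.05. *CDK6* also passed with upper-quartile factors (edgeR p 0.0442), limma on log2(CPM + 1) (limma p 0.0417) and without *ZK3*-KO replicate 2 (edgeR p 0.0224). *CDKN1B* also passed with library totals alone, upper-quartile factors, at least 10 reads in every library, DESeq2 and limma on either scale (edgeR, DESeq2 or limma p 0.0150 to 0.0457). The share of all tested genes at that p was not counted in these alternatives. *CCND1*, *CDK4*, *CDK6*, *CDKN2A*, *CDKN2C* and *CDKN1B* kept their direction in all 14. The sign changed for others when single libraries were left out, with ranges of -0.40 to 0.030 for *CCND3* (above 0 without *ZK3*-KO replicate 3), -1.40 to 0.29 for *CDKN2B* and -0.27 to 0.31 for *RB1*, on the log2 scale. *ZKSCAN3* ranged from -0.29 to 0.086 and was above 0 only without *ZK3*-KO replicate 3.

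Over all genes, the number past the threshold was 376, against 1506 with DESeq2, 3371 at an unadjusted p and 49 (without *ZK3*-WT replicate 2) to 2858 (without *ZK3*-KO replicate 3) with a library left out. With the replicate number as a block, 461 genes passed and no call changed among the set, *ZKSCAN3* and the genes named by rule. For the other pathway genes (75 tested in the main fit), 1 passed, against 0 with upper-quartile factors or with all genes of at least 1 read, 5 with DESeq2, 12 at an unadjusted p and 0 to 35 with a library left out (35 without *ZK3*-KO replicate 3). Of all tested genes, 2.05% passed in the main fit, 1.92% with upper-quartile factors and 0.955% with all genes of at least 1 read. The share was 8.2% with DESeq2, 18.4% at an unadjusted p and 15.1% without *ZK3*-KO replicate 3. The share of *CCND1* in D-type cyclin mRNA was 96.0% in *ZK3*-WT and 96.1% in *ZK3*-KO cells by CPM, which is not scaled by length, against 92.0% in each by TPM. Depth limits *CCND2*, which had at most 4 reads.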

Other observations

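*JUN* and *EGR1*, early response genes that growth factor signals induce, were picked with their values in view, because the same 3 libraries were low in them as in *CDKN2B*. *JUN* was counted at 26.3, 86.3 and 80.6 CPM (*ZK3*-WT) and 27.05, 17.1 and 106 CPM (*ZK3*-KO). *EGR1* was counted at 113, 338 and 341 CPM (*ZK3*-WT) and 109, 69.5 and 250.7 CPM (*ZK3*-KO). Each was low in *ZK3*-WT replicate 1 and in *ZK3*-KO replicates 1 and 2. In edgeR's quasi-likelihood test their log2 fold changes were -0.36 (edgeR FDR 0.827) and -0.89 (edgeR FDR 0.444), and without *ZK3*-KO replicate 3 they were -1.55 (edgeR FDR 0.0511) and -1.57 (edgeR FDR 0.0427). In that fit 15.1% of all tested genes were called. Their list also holds *MYC*, which did not follow this pattern, with 282 and 249.6 CPM in *ZK3*-KO replicates 2 and 3. *FOSL1*, also listed, was lowest in the same 3 libraries (41.5, 66.7 and 80.6 CPM), with *ZK3*-WT replicate 2 close above at 86.9 CPM.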
